A study of Mus musculus with 12 samples.

Results

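The genes described here are the nuclear genes for the subunits of oxidative phosphorylation: the 4 complexes of the respiratory chain, I to IV, and complex V, the ATP synthase. They were chosen by name alone, with a pattern of symbols that takes genes named Nduf, Sdh, Uqcr, Cyc1, Cox and Atp5. No measured value is part of the pattern, though earlier results of these data were known when it was chosen. The pattern matched 80 of the 55401 genes in the deposited table. Of these, 35 belong to complex I, 4 to complex II, 9 to complex III, 13 to complex IV and 18 to complex V, and 1 more, Cox6c2, is listed by the deposited annotation as a processed pseudogene. Ndufa4 bears a complex I name and was counted with complex IV, where its protein is now placed. The filter on low counts left 73 of the 80 to be tested.

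RNA with poly(A) tails was sequenced from CD4 T cells sorted from spleens of C57BL/6 mice of unstated age at day 21 of infection with Leishmania donovani, the parasite that causes visceral leishmaniasis. The TLCP group holds 6 libraries of cells that carried LAG-3 and CXCR5 with low to intermediate PD-1 (LAG-3+ CXCR5+ PD-1lo/int). The Tfh group holds 6 libraries of follicular helper cells (CXCR5+ PD-1hi), which the series description calls mostly germinal center cells, and every mouse in both groups was infected. The description gives 6 mice, and each population was numbered 1 to 6, so p-values measure the spread between these libraries.

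Oxidative phosphorylation takes electrons from NADH (at complex I) and from succinate (at complex II), passes them through complex III and cytochrome c to oxygen at complex IV, and uses the proton gradient built on the way to make ATP at complex V. Most subunits are nuclear genes whose proteins are imported into the mitochondrion, while a few core subunits of every complex except II are made from mitochondrial DNA. T cells are known to raise mitochondrial respiration and glycolysis to different extents as they become effector, memory or follicular helper cells.

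Assigned reads came to between 8531523 and 9896009 in TLCP libraries and between 6939770 and 12688306 in Tfh libraries. T cell defining genes were present in all libraries, and their summed level was 3191 to 4135 CPM in TLCP and 4712 to 5259 CPM in Tfh (CPM, the usual per-library rate of assigned reads, is given here after TMM scaling). Of 9 such genes, 8 were lower in TLCP (5 with library totals alone). B cell markers summed to 561 to 2341 CPM in TLCP and 285 to 762 CPM in Tfh, and plasma cell markers to 717 to 3338 CPM in TLCP and 81.0 to 250.3 CPM in Tfh. Of 11 B cell markers tested, 9 were higher in TLCP, as were 6 of 6 plasma cell markers and 5 of 5 basophil and mast cell markers, 1 of 4 of macrophages and monocytes, 0 of 3 of neutrophils, 0 of 6 of erythroid cells and 0 of 3 of CD8 T and NK cells. The ribosomal RNA-like gene CT010467.1 took 12.9% to 24.1% of assigned reads in TLCP and 16.6% to 30.9% in Tfh, and the mitochondrial ribosomal RNA genes took 4.30% to 5.87% in TLCP and 6.47% to 8.47% in Tfh. The part of these differences in the results below was not tested. In bulk libraries of this kind, fewer cells of a type and less RNA per cell cannot be told apart.

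With TMM scaling, subunit transcripts of all 5 complexes were lower in TLCP than in Tfh by small amounts, and with the deposited TPM values they were not. By edgeR's quasi-likelihood test, 32 of 73 tested members (43.8%) fell in TLCP on the TMM scale at an adjusted p under 0.05, 0 rose and 41 did not pass. At an unadjusted p under 0.05, 39 were lower and 0 higher, both with edgeR and with DESeq2. Over all 12015 genes tested, 16.4% were called lower and 16.8% higher. The log2 fold changes of the 32 ran from -0.65 to -0.21. Among these, 28 were lower in all 6 pairs of libraries with the same number. The share of all genes with this pattern was not computed. A pair count among genes already called lower on the same libraries is no separate support. The median over the 73 members was -0.24, against -0.0041 over all genes tested. A negative estimate was found for 67 members and a positive one for 6, where 50.6% of all genes were negative. In 13 members every TLCP library lay below every Tfh library, and in 0 members above, where 8.86% of all genes tested lay below and 8.3% above. No member changed by 2-fold or more, and 4 had estimates at least 1.5-fold lower in TLCP. The summed level of the members was 3403, 3515 and 3776 CPM in TLCP (lowest, median, highest of 6 libraries) and 3821, 4288 and 4561 CPM in Tfh.

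How far the genes fell depended on what each library was scaled to. As a share of all assigned reads, the members took 0.332% to 0.422% in TLCP and 0.351% to 0.439% in Tfh, ranges that overlap. Once CT010467.1 and the mitochondrial ribosomal RNA genes were left out of the total, the members took 0.469%, 0.480% and 0.520% of the remaining reads in TLCP (lowest, median, highest) and 0.524%, 0.588% and 0.631% in Tfh, with no overlap. With library totals alone, 7 of the 73 members were lower (7.48% of all genes were called lower) and the median was -0.08, but this scaling moved the median of all genes to 0.17. With totals that leave out the ribosomal RNA genes, 34 members were lower (17.2% of all genes) and the median was -0.26. On the authors' TPM values, tested with limma on log2(TPM + 1), 1 of 75 members was lower (3.71% of all genes) and the median was 0.06, with a median of 0.25 over all genes. By complex, the median under deposited TPM ran from -0.01 in complex I to 0.11 in complex IV. TPM recomputed without the ribosomal RNA genes gave 11 lower of 76 (7.04% of all genes) and a median of -0.16. No member was higher in any of these 5 settings, where 16.8%, 26.6%, 16.1%, 24.9% and 11.7% of all genes were, in the order given. At an unadjusted p under 0.05, 2 members were higher with library totals and 6 with log2(TPM + 1). In the authors' deposited table, 28 of the 77 members with an adjusted p were lower (11.6% of all genes with one), 0 were higher (14.1%) and the median log2 fold change was -0.21.

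Counts from other fits of the same libraries follow, some with libraries left out. They reuse the data of the full fit and are no separate support. The split into libraries 1 to 3 and 4 to 6 was by number alone. With libraries 1 to 3 alone 19 members were lower (13.5% of all genes) and 0 higher (14.1% of all genes). With libraries 4 to 6 alone 24 were lower (10.9% of all genes) and 1, Cox7c, was higher (11.8% of all genes). Without TLCP libraries 4 and 5, which held the most immunoglobulin reads, 24 were lower (13.1% of all genes, with 12.3% higher), and without Tfh libraries 4 and 5, which held the largest shares of CT010467.1, 23 were lower (13.9% of all genes, with 16% higher). With DESeq2 28 were lower (12% of all genes, with 14.6% higher), and with the library number as a block 34 (18% of all genes, with 19.1% higher). Removing immunoglobulin, B cell and plasma cell genes left 31 members lower (16.3% of all genes, with 16.4% higher). This drops those genes alone and keeps any subunit reads that came from such cells, so the part of such cells was not tested.

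**Figure D1:**
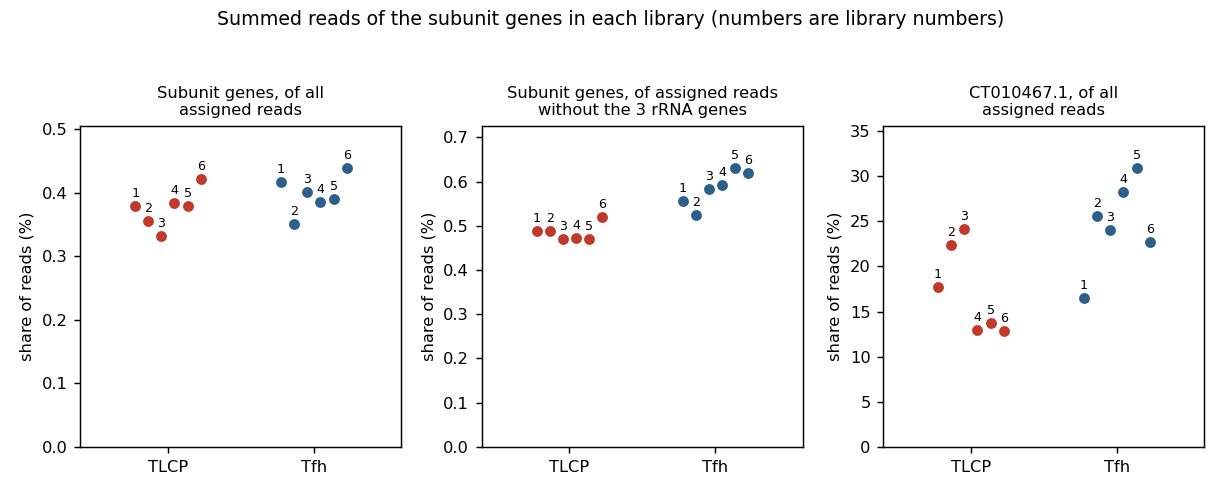
Share of reads taken by the 80 subunit genes together in each of 6 TLCP and 6 Tfh libraries, as a percentage of all assigned reads (left) and of assigned reads without CT010467.1 and the mitochondrial ribosomal RNA genes (middle), and the share taken by CT010467.1 (right). The groups overlap on the left (0.332% to 0.422% in TLCP, 0.351% to 0.439% in Tfh) and do not in the middle (0.469% to 0.520% in TLCP, 0.524% to 0.631% in Tfh), and TLCP libraries 4 to 6 hold the smallest shares of CT010467.1.

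**Figure D2:**
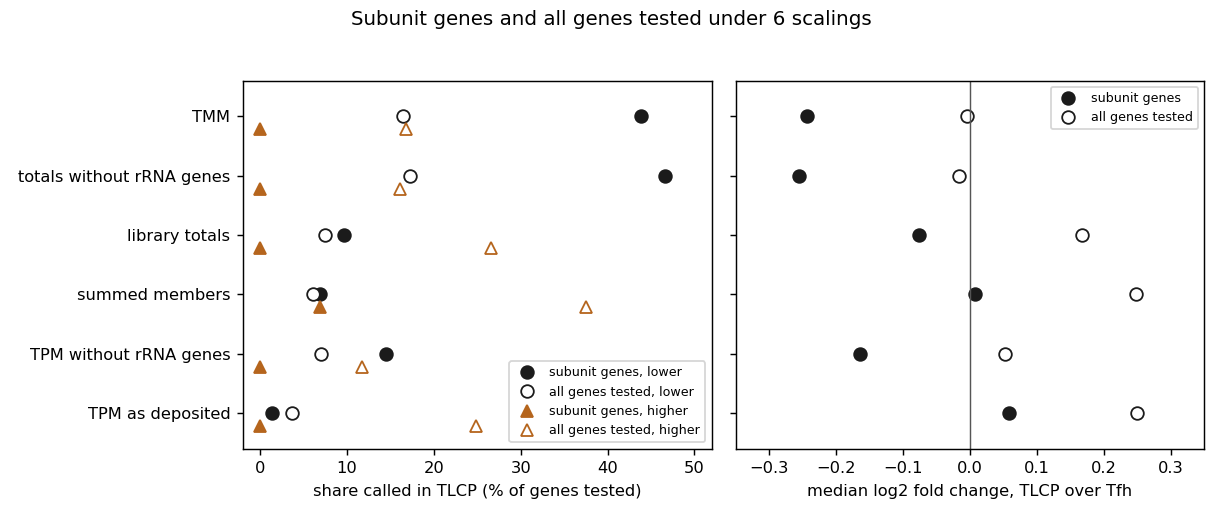
Share of genes called lower (circles) or higher (triangles) in TLCP at an adjusted p under 0.05 (left, percent of genes tested) and the median log2 fold change of TLCP over Tfh (right), for the subunit genes (filled) and for all genes tested (open) under 6 scalings. The median of the subunit genes lies below that of all genes in every row. Rescaling shifts all genes by about the same amount, so the rows do not give separate evidence on this gap. The share of subunit genes called lower ranges from 1.33% with deposited TPM to 46.6% with totals that leave out ribosomal RNA genes.

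Complex I, the NADH dehydrogenase, had 15 of its 35 genes lower in TLCP, 0 higher and 20 not past the threshold. Over all genes tested, 16.4% were lower and 16.8% higher. The median log2 fold change of complex I was -0.30. With library totals alone, 4 genes of complex I, 0 of II, 1 of III, 1 of IV and 1 of V were lower (7.48% of all genes). Its summed level was 912 to 995 CPM in TLCP and 1019 to 1234 CPM in Tfh. The lowest estimate of all members belonged to Ndufs6 (chr13:73319838-73328542, GRCm38), a zinc-binding accessory subunit of the arm that reaches into the matrix. Ndufs6 had 22.7, 25.9 and 26.7 CPM in TLCP (lowest, median, highest) and 37.2, 39.4 and 45.1 CPM in Tfh. All 6 TLCP libraries were below all 6 Tfh libraries, and the difference was 1.57-fold (log2 fold change -0.65, SE 0.083, adjusted p 5.5e-06). It was also the sole member lower with deposited TPM, at a mean of 74.4 ± 9.67 TPM in TLCP and 95.6 ± 11.4 TPM in Tfh (SD, n = 6 each). The 250 bases before the RefSeq start of Ndufs6 (chr13:73328483-73328732, minus strand, GRCm38.p6) are shown because this gene moved most, with the match to the binding letters of NRF1, a regulator of nuclear genes for mitochondrial proteins, in capitals. The match begins 16 bases before the start.
Ndufs6: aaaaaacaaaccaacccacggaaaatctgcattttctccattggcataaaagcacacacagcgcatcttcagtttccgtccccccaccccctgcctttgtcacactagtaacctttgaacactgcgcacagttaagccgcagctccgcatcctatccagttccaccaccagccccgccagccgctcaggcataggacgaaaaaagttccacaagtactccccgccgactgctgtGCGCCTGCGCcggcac

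Ndufs4, a neighbouring accessory subunit whose loss in mice gives a Leigh-like brain disease, had 34.5, 37.6 and 42.1 CPM in TLCP and 49.997, 52.2 and 57.3 CPM in Tfh. The groups did not overlap (log2 fold change -0.48, SE 0.075, adjusted p 6.0e-05). Ndufa12, an accessory subunit where the NADH module joins the rest of the matrix arm, had 8.40, 9.89 and 10.2 CPM in TLCP and 10.9, 13.9 and 17.5 CPM in Tfh. It did not overlap between groups either (log2 fold change -0.60, SE 0.15, adjusted p 0.0036), although fewer reads lie behind it (82 in its thinnest library). With libraries 1 to 3 alone its estimate of -0.46 did not pass. The other 6 accessory genes of the matrix arm, Ndufv3, Ndufa2, Ndufa5, Ndufa6, Ndufa7 and Ndufa9, had estimates from -0.27 to -0.14 and none passed.

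The core subunits of the matrix arm carry the flavin and iron-sulfur clusters that move electrons to ubiquinone. Of these, 3 were lower: Ndufs8 by a log2 fold change of -0.38, Ndufv2, next to the flavin site, by -0.30, and Ndufs1, the largest of the core subunits, by -0.24. Ndufv1, which binds NADH and the flavin, had an estimate of -0.15 and did not pass. Ndufs3 and Ndufs7 had positive estimates of 0.03 and 0.16. Ndufs7 carries the last iron-sulfur cluster before ubiquinone, and it had 8.07, 12.3 and 14.9 CPM in TLCP and 7.41, 11.2 and 11.8 CPM in Tfh, with groups that overlap and an adjusted p of 0.52.

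The membrane arm pumps protons, and its core is mitochondrially encoded. It had 9 of 19 accessory genes lower and a median of -0.33, against 6 of 16 and -0.16 in the matrix arm (16.4% of all genes lower). The difference between the arms was not tested. Ndufc1, a small membrane-spanning subunit, had 8.93, 9.96 and 13.9 CPM in TLCP and 13.1, 16.4 and 18.4 CPM in Tfh. The groups overlapped at their edges, with the highest TLCP library above the lowest Tfh library (log2 fold change -0.59, SE 0.14, adjusted p 0.0029), and with libraries 4 to 6 alone the estimate of -0.56 did not pass. Ndufb11, which is X-linked, had 33.6, 34.6 and 37.2 CPM in TLCP and 41.2, 44.8 and 52.6 CPM in Tfh, without overlap (log2 fold change -0.39, SE 0.081, adjusted p 0.00092). Ndufa3 had 27.7, 31.6 and 36.0 CPM in TLCP and 35.8, 41.7 and 45.3 CPM in Tfh, so its groups met at the edge (log2 fold change -0.36, SE 0.090, adjusted p 0.0037). Ndufb3, Ndufb5, Ndufb8, Ndufb9 and Ndufb10 were lower too, with estimates from -0.46 to -0.28.

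Ndufa1, which anchors the membrane arm near its junction with the matrix arm and is also X-linked, had the highest level per length of the complex, at 135 ± 31.3 TPM in TLCP and 141 ± 29.3 TPM in Tfh (SD, n = 6 each). It passed in the full set (log2 fold change -0.35, adjusted p 0.033), but leaving out any of TLCP libraries 1, 3 or 4 or Tfh libraries 1, 3, 5 or 6 ended the call, with estimates from -0.35 to -0.29. Ndufs5 had an estimate of -0.59 with a wide error (SE 0.30, adjusted p 0.14), on as few as 17 reads in a library. Without TLCP library 4 the estimate for Ndufs5 was -0.85 and passed. Ndufb2, Ndufb4, Ndufb6, Ndufa8, Ndufa10, Ndufa11, Ndufa13 and Ndufc2 had estimates from -0.52 to -0.13 that did not pass. Ndufb7 stood at 0.03, with 22.4, 23.9 and 26.7 CPM in TLCP and 17.2, 24.4 and 27.8 CPM in Tfh. Of these genes, Ndufs5, Ndufa13 and Ndufb6 share 21.7% to 31.6% of their 50-base stretches with other genes and are less certain.

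**Figure D3:**
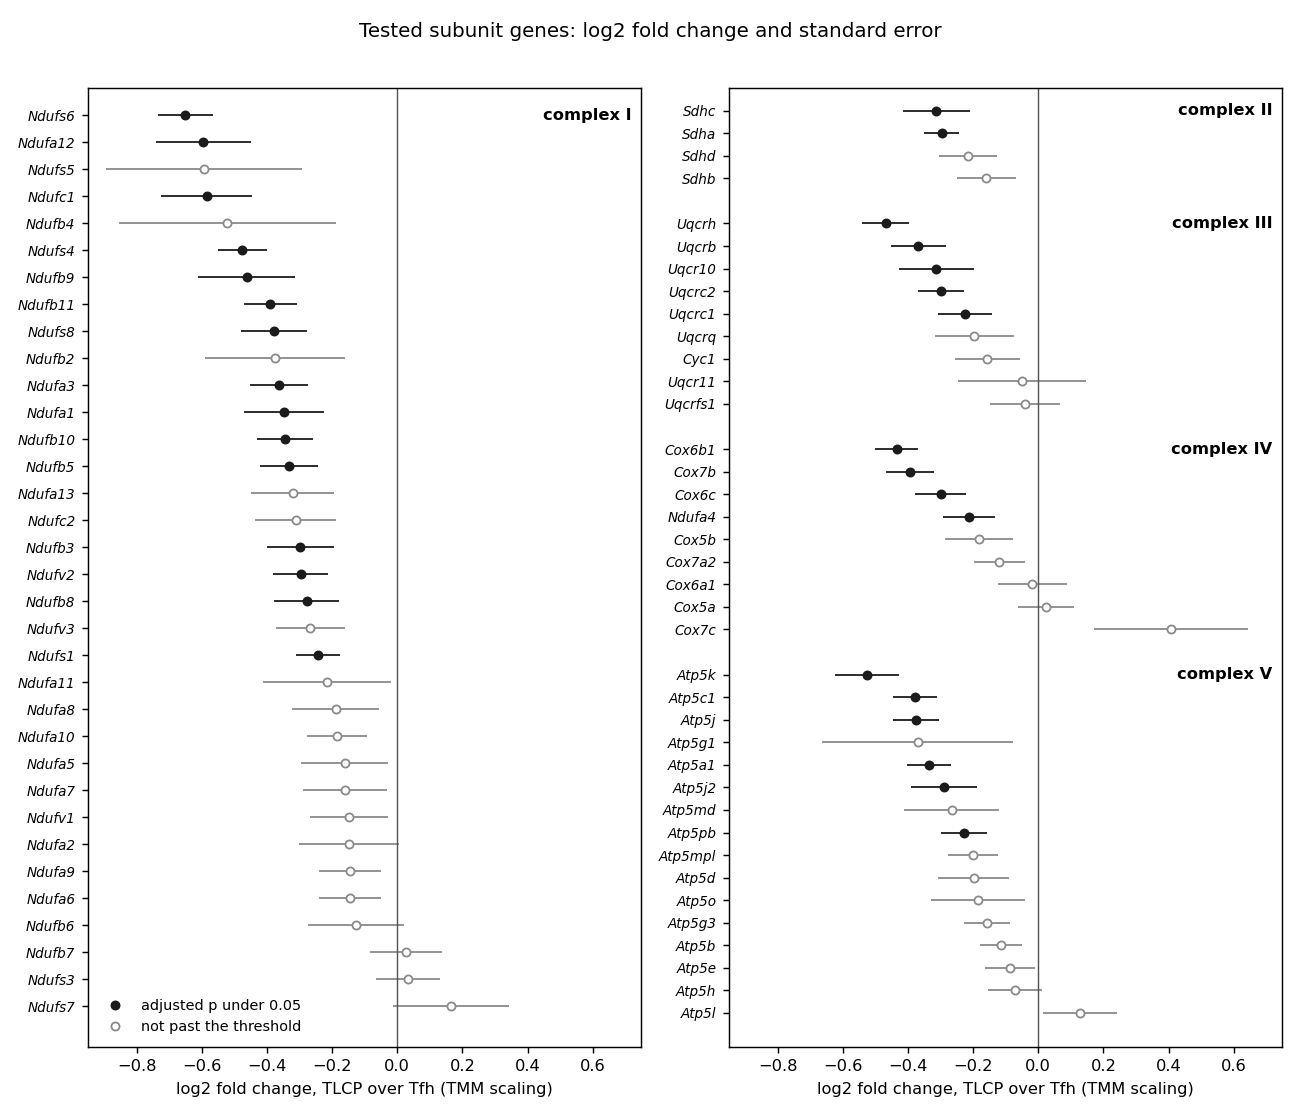
Log2 fold change of TLCP over Tfh (points, TMM scaling) with its standard error (bars) for the tested subunit genes (1 is not drawn), complex I on the left and complexes II to V on the right, filled where the adjusted p was under 0.05. Filled points lie only on the negative side (32 genes, from -0.65 to -0.21, where deposited TPM gave 1 lower gene), and 6 open points lie above 0, with Cox7c the highest at 0.41.

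Complex II, succinate dehydrogenase, is shared with the citric acid cycle and is built from 4 nuclear genes. All 4 had negative estimates and 2 were lower (16.4% of all genes). Sdha, the flavoprotein that oxidises succinate, had 162, 170 and 177 CPM in TLCP and 199, 209 and 217 CPM in Tfh. Its groups did not overlap (log2 fold change -0.30, SE 0.053, adjusted p 0.00022), and per length it had the highest level of the complex, 108 ± 11.2 TPM in TLCP and 109 ± 15.7 TPM in Tfh (SD, n = 6 each). Sdhc, a membrane anchor at the ubiquinone site, had 24.8, 30.9 and 36.4 CPM in TLCP and 31.4, 38.3 and 43.8 CPM in Tfh, with overlap (log2 fold change -0.31, SE 0.10, adjusted p 0.023). Without TLCP library 1 the estimate for Sdhc was -0.26 and did not pass. The other anchor, Sdhd, and the iron-sulfur subunit Sdhb had estimates of -0.22 and -0.16 that did not pass.

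Complex III, which passes electrons from ubiquinol to cytochrome c, had 5 of 9 genes lower (16.4% of all genes) and a median of -0.23. Uqcrh, the hinge protein that helps cytochrome c dock (chr4:116066965-116075071, GRCm38), had 100.7, 106 and 120 CPM in TLCP and 136, 146 and 172 CPM in Tfh. Every TLCP library was below every Tfh library (log2 fold change -0.47, SE 0.071, adjusted p 3.8e-05), and Uqcrh had the highest level per length of the complex, 228 ± 33.8 TPM in TLCP and 258 ± 32.6 TPM in Tfh (SD, n = 6 each). The 250 bases before its RefSeq start (chr4:116075071-116075320, minus strand, GRCm38.p6) are shown because Uqcrh moved most in this complex, with a match to the ETS letters, bound by the GABP regulator among other factors, in capitals from 10 bases before the start.
Uqcrh: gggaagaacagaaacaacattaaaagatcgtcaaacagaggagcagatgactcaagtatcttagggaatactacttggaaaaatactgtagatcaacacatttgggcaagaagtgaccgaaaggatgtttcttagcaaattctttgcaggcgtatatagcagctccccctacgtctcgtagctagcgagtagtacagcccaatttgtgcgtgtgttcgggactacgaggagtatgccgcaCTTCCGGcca

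Uqcrb, a small subunit beside cytochrome b, had 28.8, 31.6 and 35.9 CPM in TLCP and 38.1, 40.5 and 45.0 CPM in Tfh, without overlap (log2 fold change -0.37, SE 0.085, adjusted p 0.0022). It shares 25.5% of its 50-base stretches with other genes, so its count is less certain, and with libraries 4 to 6 alone its estimate of -0.25 did not pass. The 2 core proteins, relatives of the peptidases that process imported proteins, were both lower. Uqcrc2 had 87.8, 96.6 and 101 CPM in TLCP and 105, 119 and 131 CPM in Tfh, without overlap (log2 fold change -0.30, SE 0.071, adjusted p 0.0026), although with libraries 1 to 3 alone its estimate of -0.21 did not pass. Uqcrc1 had 53.9, 59.1 and 65.4 CPM in TLCP and 58.6, 68.4 and 78.3 CPM in Tfh, and these overlap (log2 fold change -0.23, adjusted p 0.042). The call for Uqcrc1 was lost without any of TLCP libraries 1, 2 or 3 or Tfh libraries 4, 5 or 6, with estimates from -0.22 to -0.19, and with DESeq2, limma voom or RLE size factors. Uqcr10 was lower by a log2 fold change of -0.31. The catalytic subunits that carry redox groups did not pass: Cyc1, cytochrome c1, had an estimate of -0.16 and Uqcrfs1, the Rieske iron-sulfur protein, -0.04. Uqcrq and Uqcr11 stood at -0.20 and -0.05.

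Complex IV, cytochrome c oxidase, reduces oxygen, and its catalytic core is mitochondrially encoded. Of its 13 genes, 9 were tested and 4 were lower (16.4% of all genes), with a median of -0.18. Cox6b1, which faces the intermembrane space (chr7:30616861-30626151, GRCm38), had 75.4, 79.3 and 87.1 CPM in TLCP and 97.8, 107 and 119 CPM in Tfh. The groups did not overlap (log2 fold change -0.43, SE 0.067, adjusted p 4.6e-05), and Cox6b1 had the highest level per length of the complex, at 298 ± 38.1 TPM in TLCP and 331 ± 49.2 TPM in Tfh (SD, n = 6 each). The 250 bases before its RefSeq start (chr7:30626115-30626364, minus strand, GRCm38.p6) are shown because Cox6b1 moved most in this complex, with a match to the ETS letters in capitals from 28 bases before the start.
Cox6b1: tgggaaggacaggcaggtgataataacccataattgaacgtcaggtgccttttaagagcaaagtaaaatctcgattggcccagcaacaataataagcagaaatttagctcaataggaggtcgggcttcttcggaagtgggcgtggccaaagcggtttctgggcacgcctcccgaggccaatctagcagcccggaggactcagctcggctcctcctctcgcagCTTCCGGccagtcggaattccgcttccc

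Cox7b, an X-linked small membrane subunit, had 57.8, 60.6 and 73.2 CPM in TLCP and 76.2, 82.7 and 88.5 CPM in Tfh, without overlap (log2 fold change -0.39, SE 0.073, adjusted p 0.00033). Cox6c, another small membrane subunit, had 52.1, 60.0 and 68.2 CPM in TLCP and 65.8, 73.1 and 81.3 CPM in Tfh, with a small overlap (log2 fold change -0.30, SE 0.079, adjusted p 0.0059), and with libraries 4 to 6 alone its estimate of -0.26 did not pass. Ndufa4 had 49.8, 55.9 and 60.2 CPM in TLCP and 56.8, 64.2 and 75.0 CPM in Tfh, which overlap (log2 fold change -0.21, adjusted p 0.045). This call was lost without any of TLCP libraries 3, 4 or 5 or Tfh libraries 3, 5 or 6, with estimates from -0.21 to -0.17. Cox5b, the zinc-binding subunit on the matrix side, had an estimate of -0.18 that did not pass.

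Cox5a and Cox7c had positive estimates that did not pass. Cox5a, on the matrix side, had 41.0, 47.6 and 53.5 CPM in TLCP and 42.4, 47.1 and 54.2 CPM in Tfh, so its groups covered the same range (log2 fold change 0.02, SE 0.085). Cox7c, a small membrane subunit, had 9.48, 11.3 and 13.7 CPM in TLCP and 3.503, 8.81 and 13.6 CPM in Tfh, with the 3 lowest values in Tfh libraries 4 to 6 (log2 fold change 0.41, SE 0.24, adjusted p 0.20). In libraries 4 to 6 alone its estimate was 0.89 and passed. Cox7c shares 22.1% of its 50-base stretches with other genes and is less certain.

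Several complex IV subunits exist as tissue isoforms, and these cells had reads almost solely for the widely expressed ones. Cox6a1 had 39.6 ± 5.09 CPM in TLCP and 40.2 ± 5.92 CPM in Tfh (SD, n = 6 each; log2 fold change -0.02), and Cox7a2 had 45.6 ± 1.70 CPM in TLCP and 49.6 ± 4.84 CPM in Tfh (fitted log2 fold change -0.12). Neither passed. The heart and muscle isoforms Cox6a2 and Cox7a1 had 12 and 14 reads over the 6 TLCP libraries and 0 and 10 reads over the 6 Tfh libraries. Cox6b2, the testis isoform, had 20 reads in TLCP and 18 in Tfh, and Cox7b2 had 0 reads in all libraries. A count of 0 in a library allows up to 0.303 to 0.352 CPM before TMM scaling in TLCP and 0.236 to 0.432 in Tfh (3 counts of the total, counting error only).

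Complex V, the ATP synthase, had 6 of 16 tested genes lower (16.4% of all genes) and a median of -0.21. The catalytic head is a ring of alpha and beta subunits around a central shaft that turns inside it. Atp5a1, the alpha subunit, had 339, 376 and 420.2 CPM in TLCP and 414, 485 and 520.3 CPM in Tfh, with groups that met at their edges (log2 fold change -0.33, SE 0.067, adjusted p 0.00065). It had the highest level per length of the complex, 316 ± 47.9 TPM in TLCP and 326 ± 40.9 TPM in Tfh (SD, n = 6 each). Atp5c1, the gamma subunit of the shaft, had 136, 151 and 164 CPM in TLCP and 174, 193 and 221 CPM in Tfh, without overlap (log2 fold change -0.38, SE 0.067, adjusted p 0.00020). Atp5b, the beta subunit, had an estimate of -0.11 (adjusted p 0.18) beside that of its partner Atp5a1, and the difference between these 2 genes was not tested. Atp5d and Atp5e, in the foot of the shaft, had -0.20 and -0.09 and did not pass.

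The peripheral stalk holds the head still. Atp5j, its coupling factor, had 61.8, 62.8 and 70.1 CPM in TLCP and 69.7, 86.3 and 88.7 CPM in Tfh, with 1 TLCP library above 1 Tfh library (log2 fold change -0.38, SE 0.071, adjusted p 0.00041). Atp5pb, the b subunit, had 98.3, 106 and 120 CPM in TLCP and 116, 123 and 143 CPM in Tfh, with overlap (log2 fold change -0.23, SE 0.069, adjusted p 0.015), and with libraries 4 to 6 alone its estimate of -0.16 did not pass. Atp5h and Atp5o had estimates of -0.07 and -0.19. Atp5o shares 41.6% of its 50-base stretches with other genes, among them a second annotated row of the same name that held 0 reads in all libraries.

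In the membrane part, Atp5k, the e subunit that helps join synthase dimers (chr5:108433244-108434448, GRCm38), had 21.7, 25.2 and 27.2 CPM in TLCP and 29.5, 37.5 and 39.7 CPM in Tfh. All TLCP libraries were below all Tfh libraries, and the difference was 1.44-fold (log2 fold change -0.53, SE 0.098, adjusted p 0.00033). Atp5j2, the f subunit, was lower by a log2 fold change of -0.29, and Atp5md and Atp5mpl had -0.27 and -0.20 without passing. Atp5l, the g subunit that sits beside Atp5k, had 14.5, 16.5 and 17.7 CPM in TLCP and 13.4, 15.1 and 17.4 CPM in Tfh, which overlap (log2 fold change 0.13, SE 0.11, adjusted p 0.41). With reads of both strands counted together the estimate for Atp5l was 0.56 and passed. The 250 bases before the RefSeq start of Atp5k (chr5:108434400-108434649, minus strand, GRCm38.p6) are shown because it moved most in this complex, with a match to the NRF1 letters in capitals from 50 bases before the start.
Atp5k: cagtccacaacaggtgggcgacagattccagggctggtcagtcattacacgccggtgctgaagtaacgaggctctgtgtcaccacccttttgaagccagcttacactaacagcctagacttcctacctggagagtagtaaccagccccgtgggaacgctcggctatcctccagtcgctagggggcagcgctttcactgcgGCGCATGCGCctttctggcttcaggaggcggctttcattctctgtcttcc

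The rotating c ring is encoded by 3 genes that give the same mature protein. Atp5g3 supplied most of its reads, with 73.6, 86.3 and 94.7 CPM in TLCP and 88.8, 94.4 and 107 CPM in Tfh (fitted log2 fold change -0.16, SE 0.071, adjusted p 0.094). Its groups overlap, and without TLCP library 6 the estimate of -0.20 passed. Per length it had 103 ± 14.0 TPM in TLCP and 94.5 ± 15.7 TPM in Tfh, against 1.25 ± 0.410 TPM in TLCP and 1.33 ± 0.240 TPM in Tfh for Atp5g1 and 1.83 ± 0.781 TPM in TLCP and 1.33 ± 0.741 TPM in Tfh for Atp5g2 (SD, n = 6 each). Atp5g1 had an estimate of -0.37 that did not pass (SE 0.29). Atp5g2 was not tested, with 69 reads over the TLCP libraries and 58 over the Tfh libraries, and it shares 38.4% of its 50-base stretches with other genes. The pseudogene Cox6c2 had 9 reads in TLCP and 7 in Tfh.

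**Figure D4:**
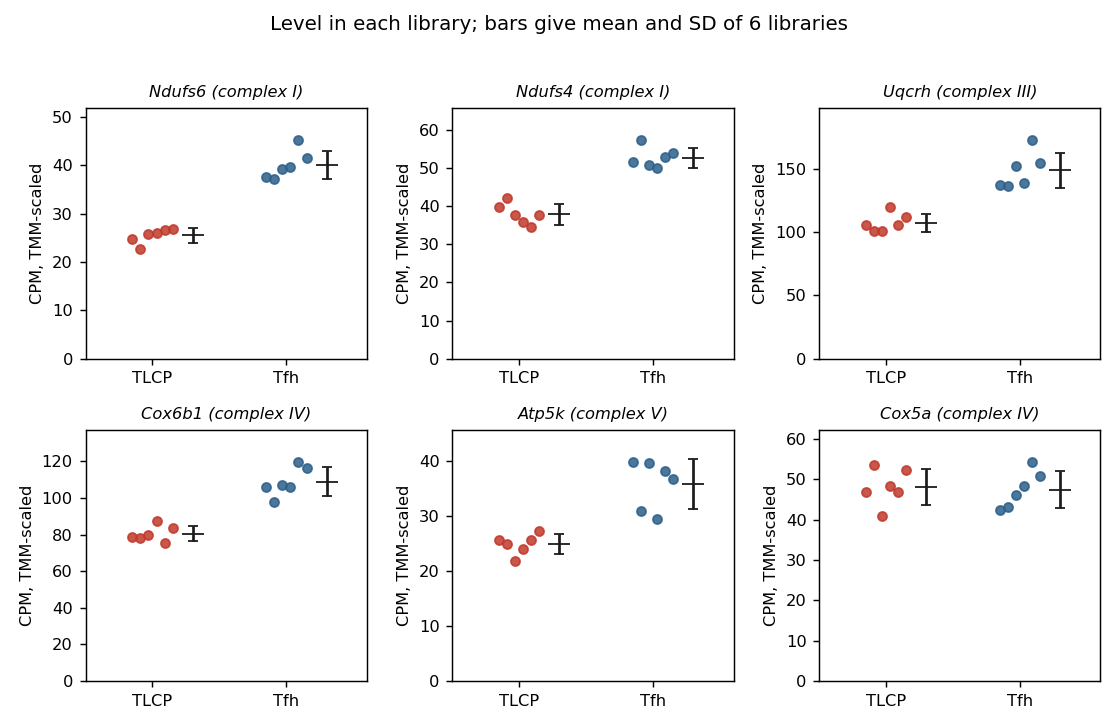
Level of 6 subunit genes in each TLCP and Tfh library (points, CPM after TMM scaling), with the mean and SD of 6 libraries beside them. Ndufs6, Ndufs4, Uqcrh, Cox6b1 and Atp5k have every TLCP point below every Tfh point, while Cox5a covers the same range in both groups (41.0 to 53.5 CPM in TLCP, 42.4 to 54.2 CPM in Tfh).

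To see which subunits departed from the rest, each library was scaled to the summed reads of the 80 members, so that a change common to all of them cancels. In this fit 5 of 73 tested members (6.85%) were lower in TLCP and 5 (6.85%) higher. Of all genes 6.1% were lower and 37.5% higher, with a median of 0.25. The share of members called lower was thus close to that of all genes, and the count alone does not set the subunits apart. Ndufs6 was lower by a log2 fold change of -0.39 relative to the members (adjusted p 0.00080). The other lower members were Atp5k, Ndufs4, Uqcrh and Cox6b1, with log2 fold changes of -0.27, -0.23, -0.21 and -0.18 and adjusted p from 0.019 to 0.044. The 5 higher members were Ndufs7, Atp5l, Ndufb7, Ndufs3 and Cox5a, with log2 fold changes of 0.43, 0.38, 0.29, 0.29 and 0.28 and adjusted p from 0.0067 (Cox5a) to 0.047 (Ndufs7). They sit in complexes I, IV and V, and 3 of them, Cox5a, Ndufs3 and Ndufb7, were named here after their values were seen. Ndufs6 made up 0.643%, 0.727% and 0.761% of member reads in TLCP and 0.910%, 0.939% and 0.989% in Tfh. Cox5a made up 1.20%, 1.36% and 1.51% in TLCP and 1.07%, 1.13% and 1.19% in Tfh. Neither gene overlapped between groups, in opposite directions. This share is the quantity that the fit compared, so the lack of overlap is no separate support. By this share, 1 tested member lay below in all TLCP libraries and 2 above. The matching share of all genes was not computed.

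With the library number as a block in this fit, 4 members were lower and 5 higher (6.85% of all genes lower, 40.5% higher). Cox6b1 (adjusted p 0.054) and Ndufs7 (adjusted p 0.059) no longer passed, and Cox7c was called higher (adjusted p 0.016).

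These counts are small and unsteady. Leaving out a library gave 2 to 6 lower and 2 to 6 higher. Over all genes (12146 to 12246 tested), 631 to 734 were lower and 3981 to 4937 higher. The lower count was 3 without TLCP library 3, 5 or 6 or Tfh library 3 or 6, and 2 without Tfh library 1. The higher count was 2 without TLCP library 3 or Tfh library 6, and 3 without TLCP library 2 or Tfh library 3 or 5. Ndufs6 was lower relative to the members in every one of these fits. The genes with the highest estimate in this scaling were Cox7c (0.64, adjusted p 0.055), Ndufs7 and Atp5l. Complex by complex, the share of member reads was 26.0% to 27.6% in TLCP and 26.1% to 27.7% in Tfh for complex I, 7.95% to 8.45% in TLCP and 7.80% to 8.76% in Tfh for complex II, and 11.2% to 12.01% in TLCP and 11.7% to 12.3% in Tfh for complex III. It was 11.96% to 12.12% in TLCP and 11.63% to 12.10% in Tfh for complex IV and 40.3% to 42.2% in TLCP and 40.2% to 41.8% in Tfh for complex V. The ranges overlap in all 5 complexes.

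Promoter windows were searched for the letters read by NRF1, by ETS factors such as GABP and by YY1, which are known regulators of nuclear genes for mitochondrial proteins. RefSeq windows from 250 bases before to 50 bases after a start were found for 65 of the 80 genes (70 windows), beside 32851 windows of all genes, and both strands were searched. The NRF1 letters (GCGCA, any base, then GCGC) were in 25.7% of member windows and 4.60% of all windows, the ETS letters CCGGAAG in 22.9% of member windows and 8.86% of all, and the YY1 letters AAGATGGC in 14.3% of member windows and 2.75% of all. Matches to different motifs shared bases in 0 member windows. Among members called lower in TLCP, 29.6% of 27 windows held the YY1 letters, against 5.13% of 39 windows of members that were tested and not called. The NRF1 letters ran the other way, with 18.5% of windows of called members and 30.8% of the rest, as did the ETS letters, with 18.5% and 28.2%. These shares are a description of the windows, with no test, and a match is not shown to be a bound site.

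The 30 bases around each YY1 match are shown as a choice made after these shares were seen. They are written in the direction of the gene with the match in capitals. In Atp5j the match begins 88 bases before the start, in Atp5pb 3 bases before it and in the reverse direction (GCCATCTT), and in the other 8 genes 23 to 39 bases after the start. The members called lower are:
Atp5j: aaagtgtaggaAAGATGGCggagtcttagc
Atp5j2: accaggacttcAAGATGGCgtcactcggtg
Atp5pb: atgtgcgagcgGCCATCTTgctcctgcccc
Ndufa3: ccgccaagaacAAGATGGCcgggagtaagt
Ndufb8: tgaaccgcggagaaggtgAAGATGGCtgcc
Ndufc1: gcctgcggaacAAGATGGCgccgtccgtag
Ndufs4: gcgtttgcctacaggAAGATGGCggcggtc
Ndufs6: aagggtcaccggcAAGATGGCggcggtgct

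The members tested and not called are:
Ndufa9: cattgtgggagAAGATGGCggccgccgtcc
Ndufs7: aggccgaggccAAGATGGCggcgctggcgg

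Genes that work with these subunits gave a mixed picture in the TMM fit, where 16.4% of all genes tested were lower and 16.8% higher. Of 6 tested nuclear genes that the name pattern leaves out, 5 for subunits and Cycs for the carrier cytochrome c, 3 were lower and 0 higher. Ndufb1-ps, the mouse gene for a membrane arm subunit despite its pseudogene symbol, had 33.1 ± 3.57 CPM in TLCP and 46.5 ± 4.42 CPM in Tfh (SD, n = 6 each; log2 fold change -0.49, adjusted p 0.00031). Cox4i1, the largest nuclear subunit of complex IV, had 113 ± 4.33 CPM in TLCP and 143 ± 22.7 CPM in Tfh (fitted log2 fold change -0.34, adjusted p 0.0052). Cox8a was lower by -0.29, and Ndufab1, Cox7a2l and Cycs did not pass. With library totals alone only Ndufb1-ps of these remained lower.

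The mitochondrially encoded subunits did not move as a block. Of 13 genes 7 were tested, 2 were lower and 3 higher, with a median of 0.16. mt-Nd6, the complex I subunit on the light strand, had 88.0 to 136 CPM in TLCP and 204 to 236 CPM in Tfh, without overlap (log2 fold change -0.96, SE 0.088, adjusted p 7.6e-08). mt-Nd5, a proton-pumping subunit of the same complex, had 2588 to 3437 CPM in TLCP and 1665 to 2497 CPM in Tfh, also without overlap (log2 fold change 0.51, SE 0.090, adjusted p 0.00019). Both calls held with library totals alone and relative to the summed members. mt-Nd4 (0.34) and mt-Nd2 (0.24) were higher and mt-Co1 lower (-0.17, with an estimate of 0.0021 under library totals). Of these, mt-Nd4 and mt-Co1 share 62.2% and 51.1% of their 50-base stretches with other genes and are less certain. mt-Co2, mt-Co3, mt-Atp6, mt-Nd3 and mt-Nd4l share 98.0% to 100% of their 50-base stretches with other genes and were listed at or near 0 reads, as was mt-Atp8.

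Assembly factors are not part of the finished complexes but are needed to build them. Of 15 tested for complex I, 2 were lower and 1 higher, with a median of -0.06. Ndufaf6 had 1.74 to 2.85 CPM in TLCP and 3.59 to 7.80 CPM in Tfh (fitted log2 fold change -1.15, SE 0.26, adjusted p 0.0021), and Foxred1 had 23.0 to 26.3 CPM in TLCP and 16.7 to 19.4 CPM in Tfh (fitted log2 fold change 0.43, SE 0.095, adjusted p 0.0016). Of 32 tested for complexes II to V, 5 were lower and 0 higher, with a median of -0.16; over all genes tested 16.4% were lower. With library totals alone 1 of these was lower and 1 higher (median 0.011), and relative to the summed members 1 was lower and 3 higher. Complex I assembly factors gave 1 lower and 3 higher with each of these 2 scalings. Library totals called 7.48% of all genes lower and 26.6% higher, and the summed members called 6.1% lower and 37.5% higher. For complexes II to V the smallest p belonged to Sdhaf1, which helps insert the iron-sulfur clusters of complex II (log2 fold change -0.64, adjusted p 0.00063). Next came Coa3, which helps mitochondria make the largest core subunit of complex IV (log2 fold change -0.54, adjusted p 0.0048).

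Among 14 citric acid cycle enzymes, 3 were lower and 0 higher, with a median of -0.01. Suclg1, the shared subunit of succinyl-CoA ligase, had 40.8 to 50.4 CPM in TLCP and 59.7 to 75.2 CPM in Tfh, without overlap (log2 fold change -0.57, adjusted p 2.0e-05), and it was also lower with library totals alone. In this list 1 enzyme was lower and 1 higher with library totals, and 1 lower and 7 higher relative to the summed members. Of all genes, 7.48% were lower and 26.6% higher with library totals, and 6.1% lower and 37.5% higher relative to the summed members. Of 15 glycolysis enzymes 8 were lower and 1 higher, with a median of -0.30. Ldhb, a lactate dehydrogenase subunit, had 5.42 to 11.2 CPM in TLCP and 12.9 to 18.1 CPM in Tfh (fitted log2 fold change -1.02, adjusted p 0.00023), Hk1 was lower by -0.30, and the inducible hexokinase Hk2 was the higher member (1.09, adjusted p 0.0024). With library totals alone 2 glycolysis genes were lower and 1 higher.

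Of 15 tested regulators of mitochondrial biogenesis, 3 were lower and 3 higher. Myc, which drives growth and mitochondrial genes, had 33.7 to 48.9 CPM in TLCP and 18.1 to 29.1 CPM in Tfh, without overlap (log2 fold change 0.89, SE 0.12, adjusted p 1.3e-05), and was higher with every scaling of counts tried for it (TMM, library totals, summed members). Yy1 had 134 to 146 CPM in TLCP and 160 to 179 CPM in Tfh, without overlap (log2 fold change -0.25, SE 0.055, adjusted p 0.0015), but with library totals its estimate was -0.07 and did not pass. Gabpa (-0.22) and the mitochondrial transcription factor Tfam (-0.23) were lower, and Pprc1 (0.44) and Esrra (0.48) higher. With library totals alone, relative to the summed members, or on TPM without ribosomal RNA genes, 0 regulators were lower. The calls for Yy1, Gabpa and Tfam were thus lost in each. Of all genes, 7.48%, 6.1% and 7.04% were lower in these settings, in the order given. Nrf1 had an estimate of -0.20 that did not pass, and Ppargc1a had too few reads to be tested.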

How the data were processed

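Per the labels' protocols, CD4 T cells came from spleen by magnetic sorting, the 2 populations were then separated on a cell sorter, and poly(A) RNA was made into libraries with a KAPA kit. The submitters' processing notes name bcl2fastq 2.20, STAR 2.7.1a, DESeq2 1.30.1 and the build GRCm38. Which annotation release they used was not given in sources used here.

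Raw read counts per gene are in the deposited files, with a column for each strand; the sense column was taken, and reads on the other strand came to 3.59% to 4.19% in TLCP and 2.83% to 3.71% in Tfh. The 4 classes of reads that name no gene (44.9% to 51.6% in TLCP, 46.1% to 56.4% in Tfh) were left out. Multimapping reads, 16.1% to 20.0% in TLCP and 18.7% to 24.3% in Tfh, are among these, so genes that share sequence with others can lose reads; 9 of the 80 members share over 20% of their 50-base stretches with other transcripts. The authors' deposited signal per library is the count divided by a size factor: whole reads were recovered for 100% of values (tolerance 0.01 reads) and equal the stranded counts, so a test on them is the same test. The authors' deposited TPM values include the ribosomal RNA genes. Their table, per the file headers, also gives log2 fold changes, p-values and a test score.

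With R 4.3.3 and edgeR 4.0.16, counts were filtered with filterByExpr, scaled with TMM and tested by the robust quasi-likelihood test, 2-sided, with Benjamini and Hochberg adjustment over 12015 genes and a threshold of 0.05. A positive log2 fold change is higher in TLCP. The alternatives used limma 3.58.1 (on log2 TPM with a pseudocount of 1 or 0.1, and voom), DESeq2 1.42.0, other scalings, filters (5 CPM in 6 libraries, or none), strands and sets of libraries. In 3 simulations of TLCP against Tfh with 200 changed genes (11824 to 11863 genes tested), 72% of 2-fold and 91.7% of 4-fold changes were recovered. Changes under 2-fold, the size of all member estimates, were not simulated, so their recovery is not known.

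The members, the lists of related genes, the tests and the alternatives were chosen with earlier results of these data known. Leaving out 2 libraries at a time, library totals with a block, and the alternatives to the fit relative to the summed members were added after seeing the data. Named by rule were, in each complex, the members with the smallest p (6 in I, 2 in II, 4 in III, 4 in IV, 5 in V) and the highest TPM, genes of subunits encoded more than once, untested members, and the 3 lowest and 3 highest estimates relative to the members; of other lists, the 2 smallest p. Genes that this rule or a member list covers but that are withheld from the text are not reported here, though they are in the counts.

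Same-numbered libraries deviated together from their group means (correlations 0.160 to 0.362; 10 of 12 libraries were closest to their own number), which was read as pairing by number, and the block was run as an alternative. Within a group, the 2 libraries most alike still differed beyond sampling noise (chi-square of 6.56 per degree of freedom). Promoter windows are RefSeq sequence on GRCm38.p6.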

Additional observations from a re-analysis of the deposited data

Results flagged for a closer look

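In 74 groups of 6 libraries examined, 3 libraries stood further from the rest of their group than Dixon's 95% limit allows for 6 values; chance flags about 1 group in 20. Atp5j was at 70.1 CPM in TLCP library 1, the highest of its group, with the other TLCP libraries from 61.8 CPM upward. Cox7b was at 73.2 CPM in TLCP library 6, the highest of a group whose lowest value was 57.8 CPM. Cox6a2, the heart and muscle isoform of a complex IV subunit, was at 1.12 CPM in TLCP library 4, which held 11 of the 12 reads of this gene in TLCP, with 0 reads in Tfh.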

How the results depend on the processing

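The calls turn on scaling. Library totals alone gave 7 lower members and a median of -0.076. Scaling to the summed members gave 5 lower, 5 higher and a median of 0.0081. Tests on log2(TPM + 1) gave 1 lower and a median of 0.058, log2(TPM + 0.1) gave 1 and 0.059, and log2(TPM + 1) with no filter gave 0 lower by limma (2 lower and 6 higher at an unadjusted p under 0.05) and 0.069. TPM without ribosomal RNA genes gave 11 lower. The cause was not tested. The estimate for Atp5pb was 0.024 relative to the summed members, 0.058 with log2(TPM + 1) with or without a filter and 0.059 with log2(TPM + 0.1). In the same order these were 0.034, 0.064 and 0.066 for Uqcrc1 and 0.044, 0.078 and 0.078 for Ndufa4.

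With no filter 1 member was higher (Cox6a2), and with unstranded counts 1 (Atp5l). Libraries 1 to 3 gave 19 lower, and libraries 4 to 6 gave 1 higher and a median of -0.33. With the replicate block 34 members were lower, 32 of them shared with the fit without it, and 0 higher (1 at an unadjusted p under 0.05); the block changed the call of none of the 33 named members compared on the TMM scale. Relative to the summed members the block gave 4 lower and 5 higher, without Cox6b1 and Ndufs7 and with Cox7c. Library totals with the block gave 9 lower, 1 higher and a median of -0.071, where 1017 of 12015 genes were lower and 3615 higher. Without each library in turn, 24 to 38 members were lower, 0 to 0 higher, and the median ran from -0.29 to -0.21. Over all genes in these fits (12146 to 12246 tested), 1719 to 1974 were lower and 1770 to 2052 higher.

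Relative to the summed members, leaving out each library gave 2 to 6 lower and 2 to 6 higher, and no filter gave 1 lower and 2 higher. Over all genes, leaving out each library gave 631 to 734 lower and 3981 to 4937 higher, of 12146 to 12246 tested. No filter gave 758 lower and 4665 higher of 26259 genes. Libraries 1 to 3 gave 3 and 2 (686 and 3173 of 12090 genes), and libraries 4 to 6 gave 1 and 2 (509 and 3715 of 12265 genes). Leaving out TLCP libraries 4 and 5 gave 2 and 3 (614 and 3657 of 12299 genes). Leaving out Tfh libraries 4 and 5 gave 2 higher (3925 of 12488 genes). With all libraries, 6.1% of all genes were lower and 37.5% higher in this scaling. Ndufs6, Ndufs4, Uqcrh, Cox6b1 and Atp5k were called lower in every TMM fit run, with all libraries or some left out. Members with few reads, such as Ndufb4 with 12 in its thinnest library, had wide errors (SE 0.33).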
